A study of Mus musculus with 13 samples.

Results

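Forkhead (Fox) genes encode transcription factors that share a winged-helix DNA-binding domain, and their promoters were examined in mouse embryonic stem cells (ESCs). The family was taken as 41 listed genes, placed at their mm9 positions in the GENCODE vM1 annotation. Of these, 40 were annotated as protein-coding, out of 22367 protein-coding genes in all, and 1 (Foxl1) was annotated as a pseudogene and is described apart. Foxf1 carries the older symbol Foxf1a in that annotation. A gene was counted as having a peak in a list when at least 1 bp of a peak lay within 1 kb of the start site, the 5′ end of the gene record, a window of 2001 bp.

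The study performed chromatin immunoprecipitation followed by sequencing (ChIP-seq) in wild-type and AEBP2 knockout ESCs, and 5 of its 13 samples, each with a deposited list of broad peaks, were used. All 5 were labelled as the wild-type 129/1 XY ES line grown in serum and LIF. AEBP2 was precipitated with an antibody to the endogenous protein in 2 replicates, and H3K27 methylation in 2 replicates; the labels name the latter antibody H3K27 and the study's design names H3K27me3. The fifth list, FS2-AEBP2, came from 1 sample without a replicate, in which AEBP2 carrying a Flag-StrepII (FS2) tag was precipitated through the tag with another ChIP protocol, using beads blocked with albumin and yeast tRNA. The study's methods for mass spectrometry describe the tagged protein as expressed from the plasmid pCAG in E14 cells. Their ChIP section names neither plasmid nor line for it, and the labels give the 129/1 XY line. The tag, the protocol and possibly expression from a plasmid and the line thus differ together between FS2-AEBP2 and endogenous AEBP2 and cannot be told apart. Genes of pluripotent cells (Pou5f1, Nanog, Sox2, Esrrb and Zfp42) had a peak in 0 of the 5 lists.

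Polycomb repressive complex 2 (PRC2) trimethylates lysine 27 of histone H3, a mark of repressed chromatin, and AEBP2 is one of its accessory subunits. In ESCs the mark is known to lie over CpG islands of developmental regulators that these cells do not express. Most Fox genes are such regulators: Foxa factors open chromatin in endoderm, Foxc and Foxf factors pattern mesoderm, Foxe factors act in thyroid and lens, and Foxp3 specifies regulatory T cells. Others, such as Foxo1, Foxo3 and Foxo4 downstream of insulin signalling and the cell-cycle regulator Foxm1, are broadly expressed, whereas Foxo6 is known from the brain and was classed as developmental. By such textbook knowledge, 26 protein-coding members were classed as developmental or lineage-restricted, 12 as broadly expressed and 2, Foxd3 and Foxh1, as genes of the early embryo.

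The bases before the start site are printed for some members as examples of CpG content, not as a summary over members with and without peaks. The sequences below are from the NCBIM37 (mm9) genome, 5′ to 3′ on the strand of the gene and ending at the base before the start site, with each CpG dinucleotide in capitals. Foxm1, a driver of the genes of mitosis, had the most CpG of the broadly expressed members without a peak in any list, 41 in the 250 bases before its start. Its start site lies 56 bp from that of the divergent gene 5930416I19Rik, so only the 55 bases free of annotated exons are printed, chr6:128312930-128312984 on the plus strand, with 10 CpG.
Foxm1: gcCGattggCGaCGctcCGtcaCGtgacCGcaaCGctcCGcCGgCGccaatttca
Foxi2, Foxp1 and Foxh1 shared the lowest count, 3 CpG in 250 bases, and are shown to set them against Foxm1. Foxi2 lies at chr7:142601800-142602049 on the plus strand, and Foxp1, a factor of lymphocytes, heart and brain, at chr6:99216527-99216776 on the minus strand.
Foxi2: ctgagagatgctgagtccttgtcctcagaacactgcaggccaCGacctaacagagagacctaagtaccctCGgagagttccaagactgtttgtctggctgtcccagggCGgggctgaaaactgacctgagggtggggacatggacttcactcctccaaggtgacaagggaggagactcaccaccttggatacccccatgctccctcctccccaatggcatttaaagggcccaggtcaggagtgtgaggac
Foxp1: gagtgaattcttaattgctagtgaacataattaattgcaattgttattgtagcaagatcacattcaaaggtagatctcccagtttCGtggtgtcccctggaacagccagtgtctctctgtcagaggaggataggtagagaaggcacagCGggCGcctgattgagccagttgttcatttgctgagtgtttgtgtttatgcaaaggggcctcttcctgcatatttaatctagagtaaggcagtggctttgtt
The last pair are the genes of the early embryo. Foxd3, required to maintain pluripotent cells and later the neural crest, had 21 CpG at chr4:99322740-99322989 on the plus strand. Foxh1, the DNA-binding partner of Smad proteins in Nodal signalling, had 3 at chr15:76500379-76500628 on the minus strand.
Foxd3: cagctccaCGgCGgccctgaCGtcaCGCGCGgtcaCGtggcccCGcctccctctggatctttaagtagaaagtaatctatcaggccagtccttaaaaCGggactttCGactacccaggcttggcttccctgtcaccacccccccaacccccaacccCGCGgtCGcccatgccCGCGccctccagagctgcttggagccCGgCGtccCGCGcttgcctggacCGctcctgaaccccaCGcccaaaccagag
Foxh1: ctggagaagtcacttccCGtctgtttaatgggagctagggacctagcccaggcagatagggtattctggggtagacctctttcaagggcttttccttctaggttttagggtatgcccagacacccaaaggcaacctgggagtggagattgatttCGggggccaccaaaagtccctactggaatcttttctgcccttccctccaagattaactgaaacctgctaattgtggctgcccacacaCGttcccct

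Fox promoters appeared in each list more often than protein-coding promoters in general. AEBP2 replicate 1 had a peak at 19 of 40 members (47.5%), against 9.08% of all protein-coding promoters. AEBP2 replicate 2 had a peak at 27 members (67.5%), against 22.3% of all. FS2-AEBP2 had a peak at 20 members (50.0%), against 6.53%. For H3K27me3 the counts were 24 members (60.0%) in replicate 1, against 17.0% of all promoters, and 23 (57.5%) in replicate 2, against 17.7%. Every list thus held a larger share of the family than of all promoters. The 95% Wilson interval of the members' share was 32.9% to 62.5% in AEBP2 replicate 1 and 52.0% to 79.9% in AEBP2 replicate 2. These intervals cover counting error over genes only, and some of the genes are neighbours on their chromosome. The members were chosen with earlier results of these data known, so their shares were not tested against all promoters.

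Both AEBP2 replicates had a peak at 19 members (47.5%), against 8.44% of all promoters, and both H3K27me3 replicates at 22 (55%), against 15.0%. The 19 members with AEBP2 in both replicates were also in FS2-AEBP2 and in both H3K27me3 lists, so that 47.5% of the family had a peak in all 5 lists, against 4.57% of all promoters. At the other end, 10 members (25.0%) had no peak in any list, against 68.5% of all. The other 11 members had a peak in some of the lists.

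CpG-rich sequence was common in the family: 32 of 40 windows (80.0%) overlapped a CpG-island-like region (stretches of 500-bp windows with GC of 55% or more and CpG at 0.65 or more of its expected number), against 12312 of all 22367 promoters (55%). Set against the 12312 promoters of that kind, the 32 members still had larger shares. AEBP2 replicate 1 had 19 of them (59.4%, against 16.0%), AEBP2 replicate 2 had 27 (84.4%, against 39.0%) and FS2-AEBP2 had 20 (62.5%, against 11.4%). H3K27me3 replicate 1 and replicate 2 each had 23 (71.9%, against 24.5% and 27.5%). Both AEBP2 replicates held 59.4% of these members (against 14.9%), both H3K27me3 replicates 68.8% (against 23.4%) and all 5 lists 59.4% (against 8.04%), while 3 of the 32 (9.38%) had no peak in any list, against 50.7%. Of the 8 members without such a region, 7 had no peak in any list, and the other, Foxi1, was in H3K27me3 replicate 1 alone.

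Peaks were found at a larger share of the developmental than of the broadly expressed members in every list. H3K27me3 was called in both replicates at 21 of 26 developmental members (80.8%) and at 0 of 12 broadly expressed ones. Over all promoters the share was 15.0%, below the upper Wilson limit of 24.2% for 0 of 12. AEBP2 was called in both replicates at 18 of 26 (69.2%) and 0 of 12, against 8.44% of all promoters. FS2-AEBP2 was called at 18 of 26 and at 1 of 12, Foxo1, against 6.53%. The list in which the classes lay closest was AEBP2 replicate 2, with 21 of 26 (80.8%) and 5 of 12 (41.7%), against 22.3%. No peak in any list was found at 3 developmental members (11.5%) and 6 broadly expressed ones (50.0%), against 68.5% of all. Counting Foxo6 as broadly expressed, a choice added after seeing the data, would give 1 broadly expressed member with H3K27me3 and 1 with AEBP2 in both replicates. The classes were set with earlier results of these data known, so the split is given as a description, with no test.

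**Figure D1:**
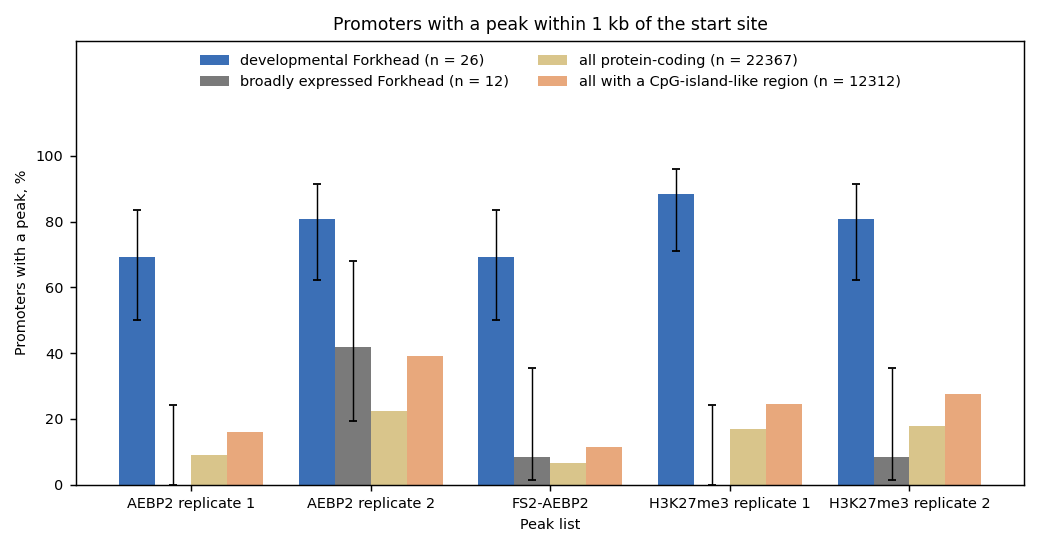
Share of promoters with a peak within 1 kb of the start site (vertical axis, %) in each of the 5 peak lists (horizontal axis), for developmental Forkhead genes, broadly expressed Forkhead genes, all protein-coding genes and all with a CpG-island-like region; error bars are 95% Wilson intervals of the Forkhead shares. The developmental bars lie between 69.2% and 88.5%, whereas the broadly expressed bars reach 41.7% in AEBP2 replicate 2 and at most 8.33% elsewhere.

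CpG content was set beside the classes for the members with a CpG-island-like region. Of the developmental members, 22 had a CpG-island-like region, and of the broadly expressed, 9. Among these, the observed to expected CpG ratio had a median of 0.78 in the developmental and 0.79 in the broadly expressed members, GC content 61.3% and 63.6%, and the number of CpG in the window 149.5 and 164.0. In the same subset, H3K27me3 in both replicates was found at 21 of 22 developmental and 0 of 9 broadly expressed members. Over all promoters with such a region the share was 23.4%. AEBP2 in both replicates was found at 18 of 22 and 0 of 9, against 14.9%. AEBP2 replicate 2 had a peak at 21 of 22 and 5 of 9, against 39.0%. The part of CpG content in the difference between the classes was not tested. Foxm1, whose CpG-dense bases are printed above, Foxj3 and Foxo4, with 136, 171 and 92 CpG in the window, had no peak in any list. Foxd4, a factor of the neural ectoderm, had 72, the fewest of the 19 members in all 5 lists. The median was 153.0 over these 19 members, 117.0 over all promoters in all 5 lists and 61.0 over all promoters.

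**Figure D2:**
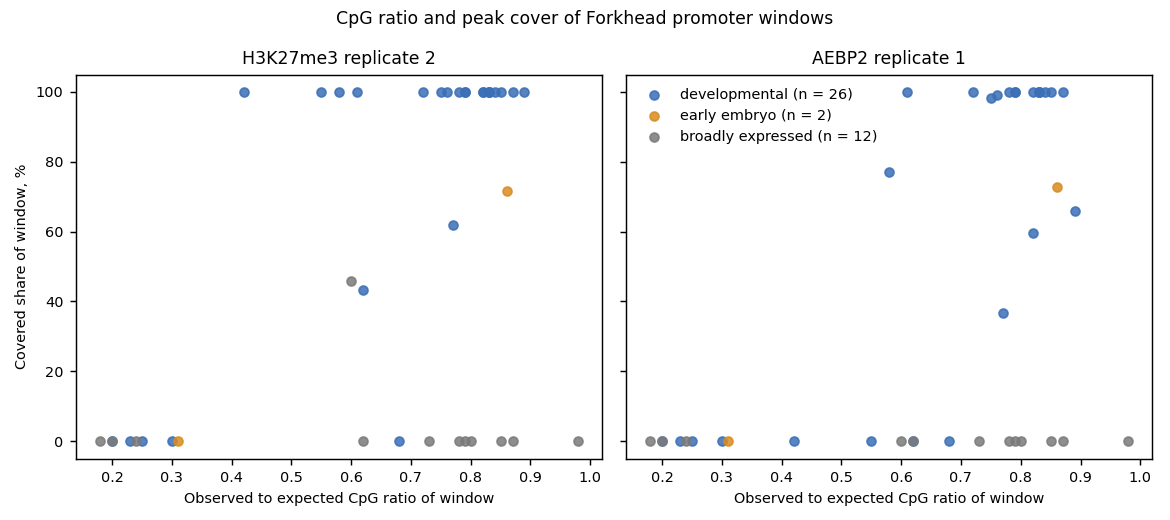
Observed to expected CpG ratio of each 2001-bp Forkhead promoter window (horizontal axis) and the share of that window covered by peaks (vertical axis, %), 1 point per gene, in H3K27me3 replicate 2 and AEBP2 replicate 1. Broadly expressed genes (grey) reach a ratio of 0.98 (Foxo1) and stay at 0% cover in these lists, except Foxj2 in H3K27me3 replicate 2. In AEBP2 replicate 2, which is not drawn, 5 of the 12 broadly expressed genes had a peak, covering 1689 bp of the window at Foxo1.

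Gene structure also varied with the peaks. Single-exon genes made up 11 of the 40 members (27.5%), against 12.8% of all protein-coding genes. Of these 11, 10 had a CpG-island-like region and all 10 were in all 5 lists, while Foxs1 had neither such a region nor a peak. Of the 29 members with several exons, 9 were in all 5 lists. Of the 12 broadly expressed members, 0 were single-exon genes. Over all 599 single-exon genes with a CpG-island-like region, 98 were in all 5 lists. Over all 12312 promoters with such a region, 990 were (8.04%). The median gene length was 3500.5 bp in the developmental class and 59015.5 bp in the broadly expressed class, so gene length, exon number and class moved together and their parts in the result were not tested.

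By subfamily, all members of Foxb, Foxc, Foxd, Foxe and Foxf (2, 2, 4, 2 and 2 genes), together with Foxl2 and Foxq1, were in all 5 lists. Foxa, Foxi, Foxo and Foxp were mixed: 2 of 3, 1 of 3, 1 of 4 and 1 of 4 members were in all 5 lists. Foxh, Foxj, Foxk, Foxm, Foxn and Foxs had 0 members in all 5 lists. Peak calls differed within subfamilies whose members share a close DNA-binding domain, as between Foxo6 (5 lists), Foxo1 (2 lists), Foxo3 (1 list) and Foxo4 (0 lists).

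**Figure D3:**
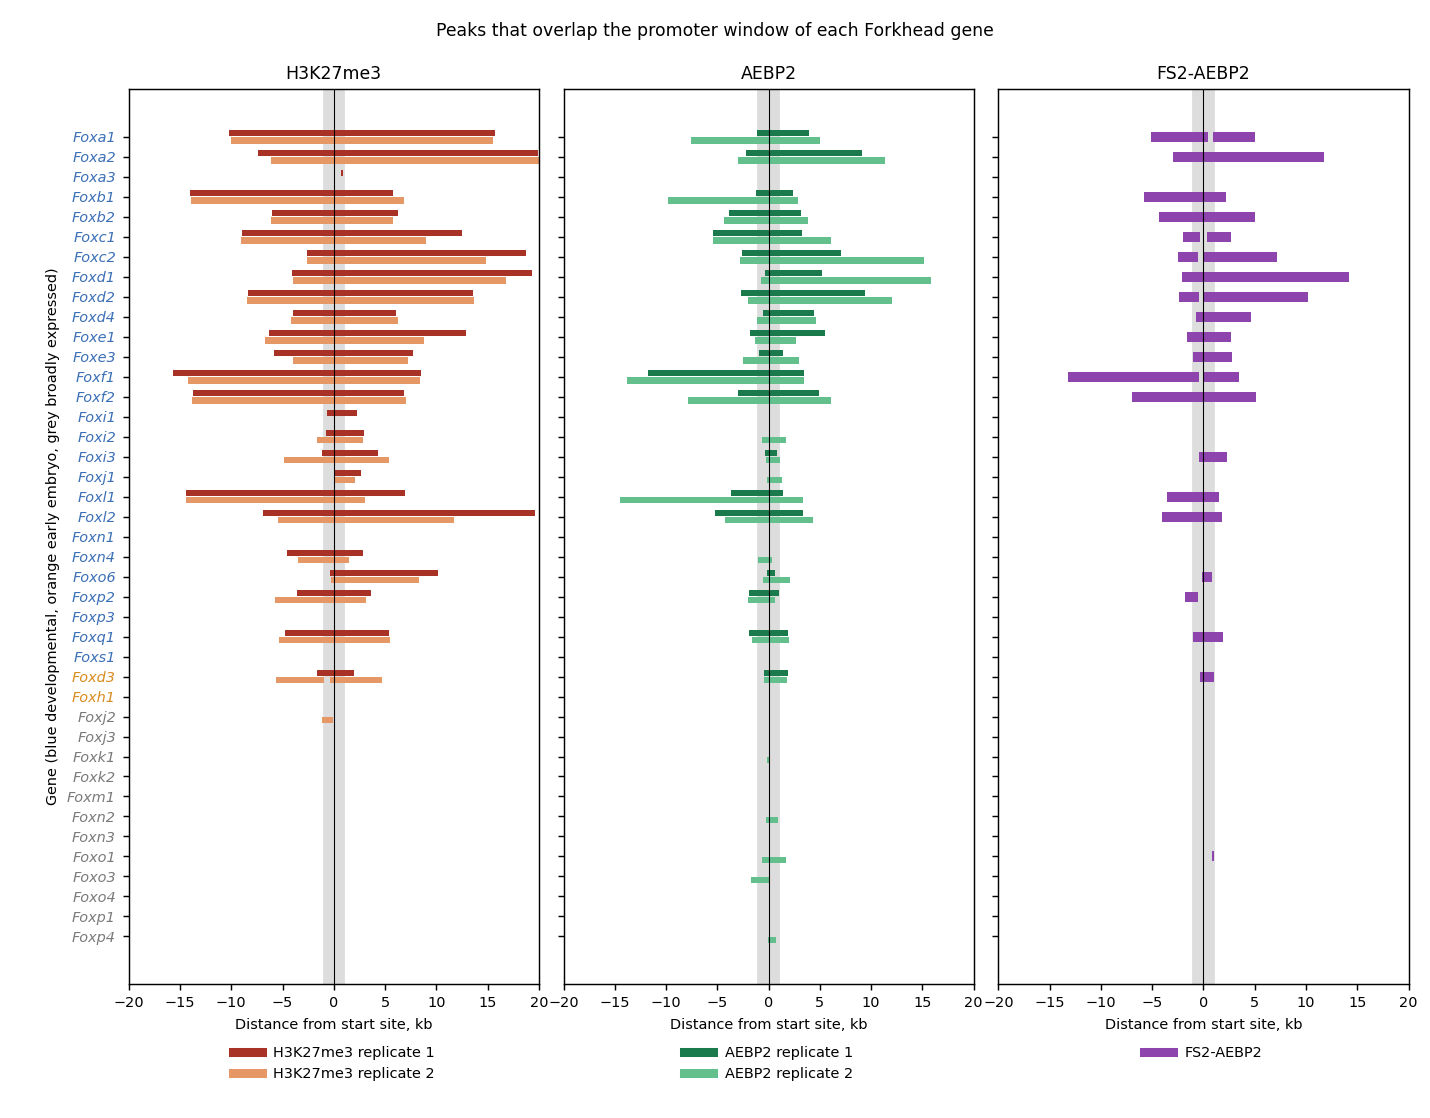
Peaks that overlap the promoter window (grey band, 1 kb each way) for 41 Forkhead genes, drawn as bars against the distance from the start site in kb, in the direction of transcription, for H3K27me3, AEBP2 and FS2-AEBP2; bars are cut at 20 kb, and gene names are blue for developmental (Foxl1 included), orange for early embryo and grey for broadly expressed. H3K27me3 bars extend beyond the AEBP2 bars at most genes that have both, and the grey genes have short bars or none.

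Among the members in all 5 lists, Foxa2, which is required for the node, notochord and endoderm, had peaks of 11249 bp and 14393 bp in AEBP2 replicates 1 and 2, 14637 bp in FS2-AEBP2, and 27266 bp and 29908 bp in H3K27me3 replicates 1 and 2. Its window was covered whole (2001 bp) in all 5 lists, and its H3K27me3 replicate 2 peak was the longest at any member. Foxa1, its partner in endoderm and liver, had AEBP2 peaks of 5062 bp and 12591 bp, a longest FS2-AEBP2 peak of 5572 bp, and H3K27me3 peaks of 25908 bp and 25582 bp. The replicates of H3K27me3 were thus close in extent at Foxa1, while those of AEBP2 were not.

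Foxf1, required in splanchnic mesoderm and lung, had AEBP2 peaks of 15164 bp and 17306 bp, an FS2-AEBP2 peak of 12818 bp, and H3K27me3 peaks of 24177 bp and 22588 bp. Foxd1, a gene of kidney stroma, had 5551 bp and 16539 bp of AEBP2, 16346 bp of FS2-AEBP2, and 23370 bp and 20826 bp of H3K27me3. Foxc2, required for lymphatic vessels and the aortic arch, had 9601 bp and 17879 bp, 7125 bp, and 21342 bp and 17445 bp in the same order. Foxc2 was the 1 member in all 5 lists at which an AEBP2 peak was longer than an H3K27me3 peak. Foxc1 and Foxf2 had H3K27me3 peaks of 21462 bp and 20607 bp in replicate 1, and Foxd2 of 21861 bp.

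Foxb1, expressed in the developing hypothalamus, had 3673 bp and 12673 bp of AEBP2, 8017 bp of FS2-AEBP2, and 19764 bp and 20806 bp of H3K27me3. Foxp2, known for vocal learning and speech circuits, had 2853 bp and 2622 bp, 1293 bp, and 7198 bp and 8880 bp in the same order. Foxo6 had the shortest AEBP2 replicate 1 peak of the family, 736 bp, beside 2588 bp in replicate 2, 912 bp in FS2-AEBP2, and 10482 bp and 8580 bp of H3K27me3. Foxo6 thus lay in all 5 lists with a short AEBP2 peak at one end of a long H3K27me3 domain, which ran from -326 bp to 10155 bp relative to its start site in replicate 1.

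Foxe1, required for the thyroid, had H3K27me3 peaks of 19184 bp and 15460 bp and AEBP2 peaks of 7278 bp and 3947 bp. Foxl2, which maintains granulosa cells of the ovary, had 26548 bp and 17164 bp of H3K27me3 and 8603 bp and 8561 bp of AEBP2. Foxe3, a gene of the lens, and Foxq1, a gene of the hair shaft, had H3K27me3 peaks of 13598 bp and 10116 bp in replicate 1. Foxi3, a gene of the ectodermal placodes, had the shortest AEBP2 replicate 2 peak of the 19 members, 1412 bp. Its AEBP2 replicate 1 peak scored above 2.75% of its list, and its AEBP2 replicate 2 peak above 71.1%. Its FS2-AEBP2 peak scored above 78.0%, and its H3K27me3 peaks above 83.5% in replicate 1 and 77.5% in replicate 2.

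Against all promoters with a peak, the members' peaks were longer. The longest peak per member had a median of 5551 bp in AEBP2 replicate 1, against 1243.5 bp over all promoters with a peak, and of 3947 bp against 872.0 bp in replicate 2. In FS2-AEBP2 the medians were 5474 bp and 1409 bp. In H3K27me3 they were 12915.5 bp and 4864 bp in replicate 1, and 11915 bp and 3970.5 bp in replicate 2. The peaks' scores, read only as ranks within a list, had a median percentile of 88.3 among members with a peak in AEBP2 replicate 1, against 47.2 over all promoters with a peak there, and of 95.3 against 79.4 in H3K27me3 replicate 1.

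**Figure D4:**
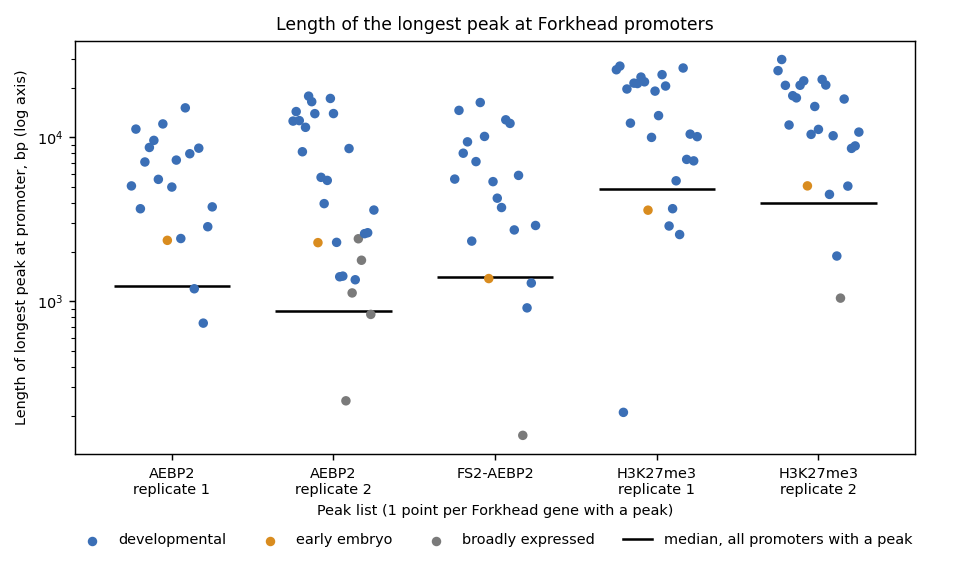
Length in bp (log axis) of the longest peak at each Forkhead promoter with a peak, 1 point per gene, in each of the 5 lists; the black line is the median over all protein-coding promoters with a peak in that list. In AEBP2 replicate 1, 17 of 19 genes lie above that median, and the broadly expressed genes (grey) are among the shortest in the lists they enter.

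At the 19 members in every list, the longest peak of each list was compared, so shorter peaks there were left out. Both H3K27me3 peaks were longer than the AEBP2 and FS2-AEBP2 peaks at 18 of 19. The AEBP2 and FS2-AEBP2 peaks were inside the H3K27me3 replicate 1 peak at 17 and inside that of replicate 2 at 16. The same counts over all promoters in every list are not given here. Over all promoters with a peak, median lengths were also larger for H3K27me3 (4864 bp and 3970.5 bp) than for AEBP2 (1243.5 bp and 872.0 bp). The AEBP2 peak had a median of 0.39 of the length of the H3K27me3 peak in replicate 1 and 0.50 in replicate 2. The AEBP2 replicates did not give the same extent: the peak of replicate 2 was longer at 14 of 19. Replicate 2 also had more peaks in all (6779 against 2877), and the part of that in the members' peak lengths was not tested.

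Over the CpG-island-like regions at these 19 promoters, AEBP2 replicate 1 covered every base at 15 members and replicate 2 at 14. H3K27me3 did so at 17 in either replicate, and FS2-AEBP2 at 8. No such count over all promoters in every list is given here. The start site itself was inside an AEBP2 peak in both replicates and inside an H3K27me3 peak in both replicates at all 19. Over all 1023 promoters in all 5 lists, it was inside an AEBP2 peak at 78.9% in replicate 1 and 91.5% in replicate 2. For H3K27me3 these shares were 93.3% and 90.2%. Of the 19 members, 14 had the start site inside an FS2-AEBP2 peak, against 58.7% of the 1023 promoters. At 4 of the other members, Foxc1, Foxc2, Foxd2 and Foxf1, the start site lay between 2 FS2-AEBP2 peaks with a gap of 622 bp, 514 bp, 507 bp and 430 bp, against 6.65% of all 1023 promoters in all 5 lists. At the last, Foxp2, the FS2-AEBP2 peak ended 543 bp before the start site. This feature was chosen after its values were seen, FS2-AEBP2 had no replicate, and the endogenous AEBP2 peaks ran through all 5 start sites.

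**Figure D5:**
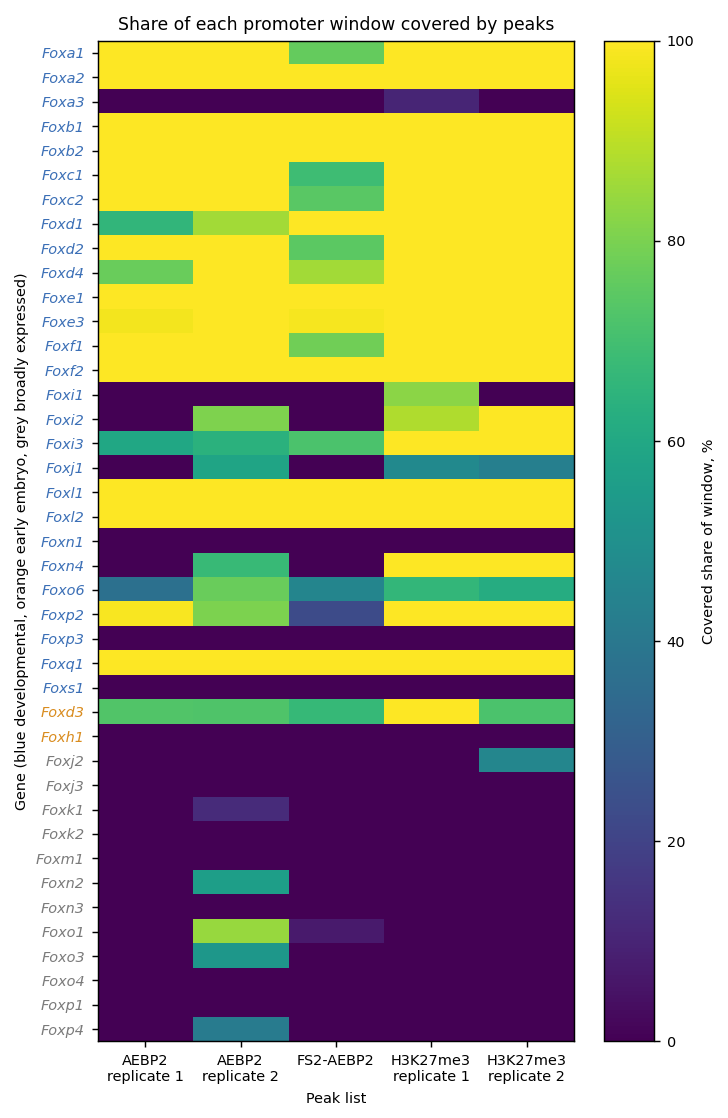
Share of each 2001-bp promoter window covered by peaks (colour, 0% to 100%) for 41 Forkhead genes (rows) in the 5 peak lists (columns). Most developmental rows (blue names, Foxl1 included) are covered in all columns, and the broadly expressed rows (grey names) are uncovered except in AEBP2 replicate 2, for Foxo1 in FS2-AEBP2 and for Foxj2 in H3K27me3 replicate 2.

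H3K27me3 was found in both replicates without AEBP2 replicate 1 or FS2-AEBP2 at 3 members: Foxj1, the master gene of motile cilia, Foxn4, a gene of retinal progenitors, and Foxi2. All 3 were in AEBP2 replicate 2. The AEBP2 replicate 2 peak was 1425 bp at Foxj1, 1354 bp at Foxn4 and 2290 bp at Foxi2, below the median of 8183 bp over the 21 developmental members in that list. The H3K27me3 peaks in replicates 1 and 2 were 2556 bp and 1890 bp at Foxj1, 7348 bp and 5049 bp at Foxn4, and 3676 bp and 4494 bp at Foxi2. Foxi2, whose printed bases hold 3 CpG, had 870 bp of CpG-island-like sequence in its window. At Foxj1 neither H3K27me3 peak held the start site: they began 50 bp and 137 bp after it. Of the 22 members with H3K27me3 in both replicates, 19 (86.4%) were in AEBP2 replicate 1, against 40.9% of the 3349 promoters with that mark, 22 (100%) in AEBP2 replicate 2, against 68.3%, 19 in FS2-AEBP2, against 38.2%, and 19 in both AEBP2 replicates, against 39.3%.

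The 5 developmental members without H3K27me3 in both replicates had a peak in at most 1 list. Foxa3, a gene of the liver, had a peak of 210 bp in H3K27me3 replicate 1, from 654 bp to 863 bp after the start site, and none in the other 4 lists. Its window also holds the start site of Sympk, 839 bp away on the other strand. Foxi1, required in the inner ear and in acid-secreting cells of the kidney, had a peak of 2882 bp in H3K27me3 replicate 1 that covered 1650 bp of the window and scored above 3.14% of its list, and none in replicate 2, whose nearest peak was 49300 bp away. Foxn1, the thymic epithelial gene mutated in nude mice, Foxp3 and Foxs1 had no peak in any list. The CpG ratios of Foxi1, Foxn1, Foxp3 and Foxs1 were 0.25, 0.20, 0.23 and 0.30, the 4 lowest of the developmental class, and none of these 4 overlapped a CpG-island-like region, whereas Foxa3 did (ratio 0.68).

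The genes of the early embryo lay at opposite ends. Foxd3 was in all 5 lists, with peaks of 2356 bp and 2281 bp of AEBP2, 1377 bp of FS2-AEBP2, 3600 bp in H3K27me3 replicate 1, and 4694 bp and 5065 bp in replicate 2, where a gap separated the peaks. The first 3 of these cover 1456 bp, 1450 bp and 1343 bp of the 2001-bp window. The Foxd3 peaks were shorter than the members' median in all 5 lists. Its AEBP2 replicate 2 peak scored above 25.2% of that list. Its peaks in AEBP2 replicate 1, FS2-AEBP2 and H3K27me3 replicate 1 scored above 72.5%, 80.7% and 83.5% of their lists. The 2 peaks in H3K27me3 replicate 2 scored above 59.8% and 84.5%. Foxh1 had no peak in any list, and the nearest was an AEBP2 replicate 2 peak 1735 bp from its start site. Foxh1 had no CpG-island-like region and a CpG ratio of 0.31, and Foxd3 had 1520 bp of such sequence in its window and a ratio of 0.86.

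Of the 12 broadly expressed members, 6 had a peak. AEBP2 replicate 2 had peaks at 5 of them: from -157 bp to 89 bp relative to the start site at Foxk1, 832 bp long at Foxp4, 1125 bp at Foxn2, 1781 bp at Foxo3 and 2409 bp at Foxo1. These 5 held the start site, and none of these promoter windows had a peak in AEBP2 replicate 1 or H3K27me3. Their median length was 1125 bp, against 8183 bp at the 21 developmental members in the same list, and their scores lay above a median of 44.3% of that list, against 94.0%. Each consisted of 1 inner block, as did 4 of the 21. AEBP2 replicate 2 peaks were found at 27.6% of the 8796 promoters that had a CpG-island-like region and no H3K27me3 peak and at 5 of the 8 broadly expressed members of that kind (62.5%). These peaks were thus called in 1 of 2 AEBP2 replicates, the one with more peaks in all.

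Foxo1, which carries the response of liver and other tissues to fasting, was the broadly expressed member with peaks in the most lists. Its FS2-AEBP2 peak spanned 152 bp, from 859 bp after the start site, and scored above 16.9% of the list, and its AEBP2 replicate 2 peak had a score below which no peak of its list lay. Foxj2 had 1 peak, in H3K27me3 replicate 2, of 1046 bp, which ended 82 bp before the start site. Foxj3, Foxk2, Foxm1, Foxn3, Foxo4 and Foxp1 had no peak in the window in any list. Foxk2 and Foxn3 lacked CpG-island-like sequence at the gene start used here, but at other annotated start sites, 4496 bp and 56277 bp downstream, they had such a region and an AEBP2 replicate 2 peak. Foxp4 had an H3K27me3 replicate 2 peak 1213 bp from the start site used here, outside its window but within that of another annotated start site. Foxp1 had no peak in any list at any of its 8 annotated start sites, and the peak nearest to its gene start lay 251143 bp away in H3K27me3 replicate 1.

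Some members were neighbours and shared domains. On chromosome 8, Foxf1 and Foxc2 were 31785 bp apart, and Foxc2 and Foxl1 11769 bp. Foxl1, a gene of the gut mesenchyme whose record (chr8:123651840-123652929) is annotated as a pseudogene in GENCODE vM1, had its window covered whole in all 5 lists. Its peaks in AEBP2 replicate 2 (chr8:123637302-123655180) and in both H3K27me3 lists were the same peaks as those of Foxc2, and in AEBP2 replicate 1 and FS2-AEBP2 it had peaks of its own, of 5113 bp and 5165 bp. On chromosome 4, Foxd2 and Foxe3 were 17154 bp apart, with 93.6% and 91.6% of the stretch between covered by H3K27me3 in replicates 1 and 2 and 35.1% and 43.0% by AEBP2. On chromosome 13, Foxq1 and Foxf2 were 67646 bp apart, and H3K27me3 covered 30.0% and 28.5% of the stretch between. No peak was shared between any of the 40 counted members.

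The forkhead core motif TGTTTAC, searched on both strands, was found in 9 of 40 windows (22.5%), against 20.7% of all promoter windows of that length, a like share. Of the 19 members in all 5 lists, 3 held it (15.8%), Foxp2 with 2 matches, and of the 12 broadly expressed members, 4 (33.3%). A match is a run of letters and not a site of binding.

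Of 20 regulators and partners of forkhead factors, 9 had a peak in AEBP2 replicate 2 (45.0%, against 22.3% of all promoters), 1 in replicate 1 (Smad3; 5.00%, against 9.08%) and 0 in FS2-AEBP2 (against 6.53%). Most of the 20 had a CpG-island-like region, and over all promoters with such a region AEBP2 replicate 2 had a peak at 39.0%. H3K27me3 was called in both replicates at 3 of the 20 (15.0%, against 15.0% of all promoters). They included the receptor gene Igf1r and Smad3, which transmits activin and TGF-beta signals. The genes Foxo activity depends on most directly in insulin signalling, such as Akt1, Pik3ca and Insr, had no peak in any list. Of 20 textbook targets, 16 had no peak in any list (80.0%, against 68.5% of all promoters), among them the liver genes Alb, Ttr and Afp and the Foxm1 targets Ccnb1, Plk1 and Aurkb. Peaks in all 5 lists were found at 3 of the 20 targets (15.0%, against 4.57% of all promoters). These included Pdx1, a pancreatic regulator under Foxa2, and Gsc, a mesendoderm regulator under Foxh1. The apoptosis gene Bcl2l11, a Foxo target, had H3K27me3 in both replicates and AEBP2 in replicate 2.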

How the data were processed

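ChIP-seq peak lists of 5 wild-type ESC samples were used: AEBP2 and H3K27me3 with 2 replicates each, and FS2-AEBP2 with 1. The authors called broad peaks per sample, not on pooled samples, and deposited the position of each peak, a score and the inner blocks of the peak. The submitters' processing notes name Bowtie, SAMtools, Picard, MACS2 2.0.10.2 and mm9. Roles, settings and control libraries are not given in the sources used here. Since no source gives the scale of the deposited score, it served only as a rank within its list. Read counts are not part of the lists, the depth is therefore unknown, and a list without a peak does not show that binding was absent. Each list was taken for the sample it is recorded under, although the 2 H3K27me3 file names read as if the numbers were swapped. Samples with SUZ12, inputs and AEBP2 knockout cells were not analysed here.

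Peaks were overlapped with promoters in Python 3.11.15 with numpy 2.4.6, scipy 1.17.1 and pandas 2.3.3, and figures drawn with matplotlib 3.10.9. Gene records came from GENCODE vM1 and sequence from NCBIM37. All peaks fell within chromosome lengths of that genome, and 15 peaks outside chromosomes 1 to 19, X and Y were left out. Foxf1 was matched through a RefSeq synonym. CpG-island-like regions were 500-bp windows in steps of 10 bp. The code was tested on simulated data. Shares are given with 95% Wilson intervals. Where a gene had several peaks in a window, the longest gave its length and score. Peak lists give no test between groups, so no p-value was computed. The design calls the samples biological replicates.

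Certain named genes and 1 promoter sequence are not reported here. Members, classes and lists of related genes were chosen with earlier results of these data known. Values were named for members with the most cover of the window, broadly expressed members with a peak, developmental members without H3K27me3 in both replicates, Foxd3, Foxh1 and members whose replicates differed. Alternatives were windows of 2.5 and 0.5 kb, cover of at least 50% of the window, peaks at or above the median score, any start site, either replicate or 1 replicate alone, and other classes for Foxd3 and Foxh1. Inner blocks alone, Foxl1 as a member and Foxo6 as broadly expressed were added after seeing the data.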

Additional observations from a re-analysis of the deposited data

How the results depend on the processing

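Counts over the family kept within 1.5 times their value under every alternative tried, and of 132 alternative values 8 moved beyond that. All 8 concern the broadly expressed members, whose count was 0. AEBP2 was found at 5 of them when a peak in either replicate counted and at 1 when Foxd3 and Foxh1, or Foxo6, were classed as broadly expressed, and leaving out 1 AEBP2 replicate gave 0 to 5. H3K27me3 was found at 1 when either replicate counted and at 1 with Foxd3 and Foxh1, or Foxo6, in the class, and leaving out 1 H3K27me3 replicate gave 0 to 1. The 5 came from AEBP2 replicate 2 alone (Foxk1, Foxn2, Foxo1, Foxo3 and Foxp4) and the 1 from H3K27me3 replicate 2 (Foxj2), while the 1 from the other classings was Foxd3 or Foxo6. Across all alternatives the number of members in all 5 lists ran from 15 to 20, with no peak in any list from 8 to 14, with AEBP2 in both replicates from 16 to 27 and with H3K27me3 in both from 21 to 25. Developmental members with H3K27me3 in both replicates ran from 20 to 23, and with AEBP2 in both from 16 to 21. No paired analysis was possible because the counts come from no test; lengths were only set side by side within a replicate number. The depth behind the lists is unknown, so a promoter without a peak was one without a call, and the larger number of peaks in AEBP2 replicate 2 could not be set against depth.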
